A study of Mus musculus with 8 samples.

Results

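The genes of fatty acid synthesis, elongation and desaturation described here comprised 10 genes of the 22430 listed in the count table, the stearoyl-CoA desaturases Scd1, Scd2, Scd3 and Scd4, together with Acly, Acaca, Fasn, Elovl6, Elovl5 and Fads2. They were picked by name, with their higher abundance in the aged libraries already known, so every 24m against 6m value of these 10 genes is a description. No p-value is given for them, and whether the fit over all genes called them is stated only as a count that supports nothing. RNA came from the brains of 4 young adult males of 6 months (6m) and 4 aged males of 24 months (24m), all C57Bl/6JRj mice from a commercial breeder. The labels give the tissue as whole brain and the protocol as a brain hemisphere, homogenised and extracted as a single lysate per animal, so values of all cell types are pooled. In such bulk RNA, fewer cells of a type and less RNA per cell cannot be told apart. Libraries were polyadenylated, directional and paired-end, and read counts per gene are deposited without normalization.

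Lipid synthesis in the cytosol starts from citrate. Acly cleaves it to acetyl-CoA, Acaca carboxylates acetyl-CoA to malonyl-CoA, and Fasn condenses malonyl units into palmitate. The elongases lengthen the chain at the endoplasmic reticulum, the stearoyl-CoA desaturases place a double bond in saturated chains, and Fads2 desaturates polyunsaturated precursors. In the brain these products go largely into membranes and myelin, and the transcription factors SREBP-1 and SREBP-2, which bind sterol regulatory elements, are the classical activators of the pathway.

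Library totals were 63460940 to 74513571 counts in 6m and 72936345 to 103462414 in 24m, the deepest being 24m replicate 1. Among the 24m libraries, replicate 1 had the lowest value of its age in 7 of the 10 genes and replicate 4 the highest in 8 of 10, so log2 fold changes without either are given for each gene. Neuronal, astrocytic and oligodendrocytic markers were abundant in every library, with summed levels of 2353 to 3608, 2847 to 3844 and 3513 to 4384 CPM, respectively. CPM are read counts relative to the library total, corrected by the trimmed mean of M values (TMM).

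The sequence upstream of the start site is shown for 3 of the desaturases that share a cluster on chromosome 19, since these are close paralogs whose upstream sequences can be compared. Each run is the 250 bases before the start of the canonical transcript on its own strand, read from GRCm39, and capitals mark a match to a motif on either strand. The Scd1 run lies at chr19:44396341-44396590 on the minus strand, and Scd3 at chr19:44191458-44191707 and Scd4 at chr19:44321281-44321530 on the plus strand.
Scd1: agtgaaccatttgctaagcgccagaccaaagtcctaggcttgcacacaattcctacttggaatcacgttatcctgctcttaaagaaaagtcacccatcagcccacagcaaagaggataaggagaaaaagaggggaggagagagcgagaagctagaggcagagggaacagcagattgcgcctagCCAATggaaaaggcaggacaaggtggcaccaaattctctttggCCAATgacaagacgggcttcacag
Scd3: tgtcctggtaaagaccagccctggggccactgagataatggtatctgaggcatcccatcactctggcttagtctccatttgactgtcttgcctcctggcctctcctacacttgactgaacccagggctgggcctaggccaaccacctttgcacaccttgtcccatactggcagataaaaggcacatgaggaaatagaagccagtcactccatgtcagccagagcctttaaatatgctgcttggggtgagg
Scd4: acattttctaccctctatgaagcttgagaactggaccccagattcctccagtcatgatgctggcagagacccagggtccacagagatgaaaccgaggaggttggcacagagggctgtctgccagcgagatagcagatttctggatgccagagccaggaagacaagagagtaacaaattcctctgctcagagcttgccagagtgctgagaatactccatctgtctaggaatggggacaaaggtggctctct

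Motifs were searched from 250 bases before to 50 after the start in the 16573 tested protein-coding genes with a promoter sequence. The sterol regulatory element TCACNCCAC was found in 1.32% of promoters and in 2 of the 10 genes, among them Acaca at -98 as TCACACCAC. The NF-Y box CCAAT stood in 38.9% of promoters and in 4 of the 10 genes, among them Scd1, Acly and Fads2. In Scd1 it occurred at -67 and -24, the only matches of that run. The Sp1 box GGGCGG, held by 52.9% of promoters, occurred in 3 of the 10 genes, among them Acly and Fads2, and the E-box CACGTG, held by 9.29%, in Acaca and Elovl5. None of the 10 genes held the TATA box TATAAA in this window, against 9.07% of promoters. Of the runs shown, those of Scd3 and Scd4 held none of these letters. Matches of different motifs did not overlap in the 10 genes. These are matches of letters, not measured binding.

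All 10 genes exceeded the count filter and were higher in each 24m library than in each 6m library. Separation in this direction held for 28.4% of the 16730 genes tested and the opposite for 26.8%. A gene was called by the quasi-likelihood test of edgeR when its adjusted p reached 0.05 and its log2 fold change reached 0.58 in size. By this rule 10 of the 10 genes were called higher, a direction called for 25.3% of all genes, and 0 were called lower, a direction called for 18.3%. Over all genes these shares were 32.6% and 10.4% with library totals alone and 21.4% and 23.3% after quantile normalization and DESeq2, and the 10 genes were called higher under both. With a trend over exonic or canonical transcript length removed, 6 of the 10 genes were called higher, beside 21.1% and 17.8% of all genes, respectively. Because the genes were selected on this comparison, nothing is read from these counts. Their log2 fold changes ranged from 0.60 in Acly to 5.82 in Scd4 with a median of 1.43, while the median over all tested genes was -0.0034. The summed level of the 10 genes was 586 to 667 CPM in 6m and 1122 to 1717 CPM in 24m. Without 24m replicate 1, 10 genes were called higher and the median was 1.62, and without 24m replicate 4, 9 were called higher and the median was 1.23. Of all genes 28.2% and 23% were called higher with these libraries left out, respectively.

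**Figure D1:**
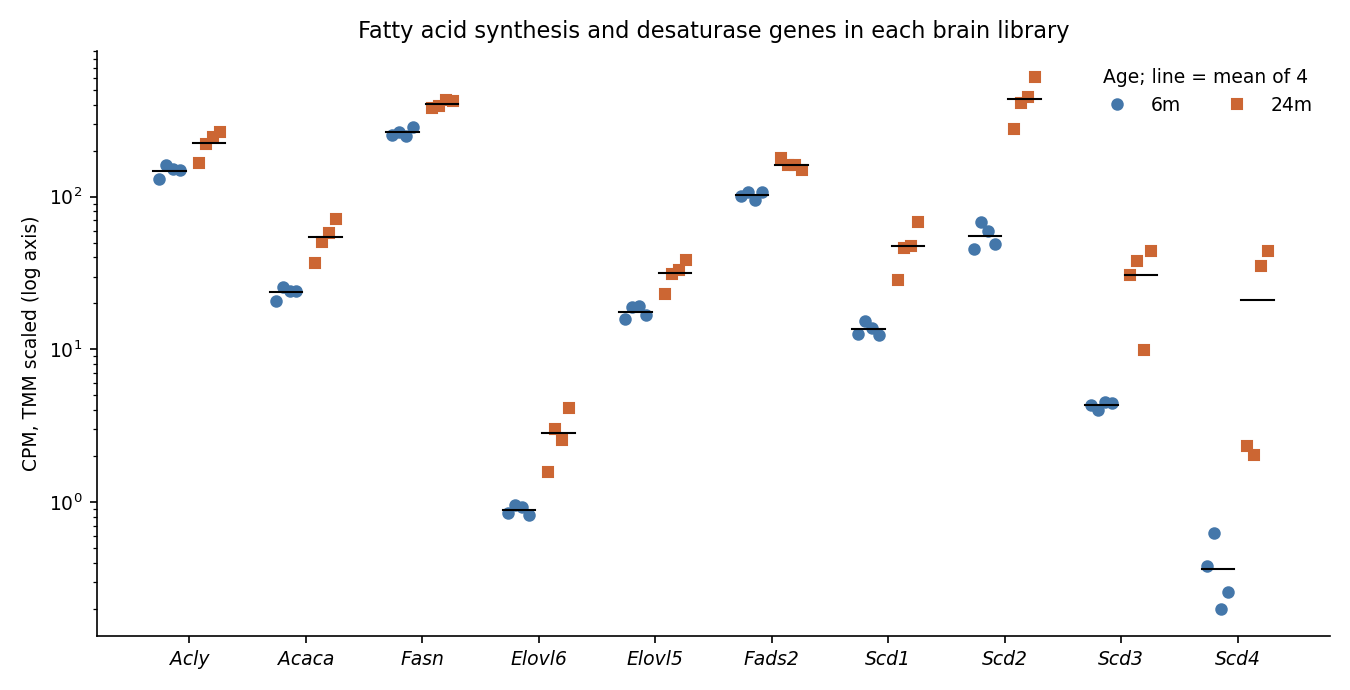
CPM of each gene on a log axis, with 1 point per library, circles for 6m, squares for 24m and a line at the mean of 4. In every gene all 24m points lie above all 6m points, and the 24m points of Scd3 and Scd4 are the most widely spread, with highest over lowest ratios of 4.44 and 21.8.

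Acly (ENSMUSG00000020917, chr11:100367165-100440756, minus strand), ATP citrate lyase, had 130.3, 162.4, 151.6 and 149.2 CPM in 6m replicates 1 to 4 and 166.5, 221.3, 247.8 and 266.3 CPM in 24m replicates 1 to 4. The ages did not overlap, but 24m replicate 1 was only 1.03 times the highest 6m library. The log2 fold change was 0.60 ± 0.14 (SE), at the edge of the threshold. It was 0.74 without 24m replicate 1, and it was below the threshold at 0.55 without 6m replicate 1, 0.56 without 24m replicate 3 and 0.51 without 24m replicate 4, and at 0.55 with a trend over GC content removed.

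Acaca (ENSMUSG00000020532, chr11:84020476-84292477, plus strand) encodes acetyl-CoA carboxylase 1, the committed step of synthesis. Its 6m libraries had 20.9, 25.6, 24.0 and 24.2 CPM and its 24m libraries 37.1, 50.8, 57.5 and 71.6 CPM. The 6m values were tightly grouped, with a highest over lowest ratio of 1.23, and the 24m values less so, with a ratio of 1.93. The log2 fold change was 1.20 ± 0.18 (SE), 1.36 without 24m replicate 1 and 1.03 without 24m replicate 4.

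Fasn (ENSMUSG00000025153, chr11:120696672-120715995, minus strand), the fatty acid synthase, had 255.1, 264.2, 249.3 and 287.5 CPM in 6m and 378.4, 391.6, 431.2 and 426.0 CPM in 24m. It varied least within the 24m libraries, with a highest over lowest ratio of 1.14. Its means were 264 ± 16.8 and 406.8 ± 25.8 CPM (SD, n = 4 each), a log2 fold change of 0.62 ± 0.08 (SE), with 0.68 and 0.60 without 24m replicates 1 and 4, respectively.

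The log2 fold changes of these 3 genes of the common trunk lay between 0.60 and 1.20, and none was called once a trend over length was removed. With a smooth trend of the libraries over exonic length removed, the log2 fold changes were 0.06 in Acly, 0.56 in Acaca and 0.18 in Fasn, all below the threshold. With the length of the canonical transcript in place of all exons they were 0.22, 0.41 and -0.11. All exons of these genes span 14575, 18396 and 11706 bases.

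Elovl6 (ENSMUSG00000041220, chr3:129326004-129432144, plus strand) lengthens palmitate to stearate. Its level was low, with 0.854, 0.962, 0.929 and 0.817 CPM in 6m and 1.57, 3.02, 2.56 and 4.14 CPM in 24m. These values rest on 163 to 361 counts per 24m library, and the ages did not overlap. The log2 fold change was 1.66 ± 0.27 (SE), and it was 1.88 without 24m replicate 1 and 1.42 without replicate 4 of that age.

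Elovl5 (ENSMUSG00000032349, chr9:77818113-77891802, plus strand) elongates polyunsaturated chains. It had 15.7, 18.9, 19.3 and 16.8 CPM in 6m and 23.0, 31.4, 33.3 and 38.6 CPM in 24m. The lowest 24m library was 1.19 times the highest 6m library, so the gap between ages was narrow. The log2 fold change was 0.84 ± 0.15 (SE), and 0.98 or 0.73 when 24m replicate 1 or 4 was left out.

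Fads2 (ENSMUSG00000024665, chr19:10038130-10079203, minus strand) encodes the delta-6 desaturase of polyunsaturated synthesis. Its 6m libraries had 100.4, 106.5, 95.5 and 107.2 CPM and its 24m libraries 179.0, 161.0, 160.2 and 148.6 CPM. In contrast to the 9 other genes, none of which had its highest 24m level in replicate 1, Fads2 was highest in replicate 1 and lowest in replicate 4. The log2 fold change was 0.66 ± 0.08 (SE), 0.63 without 24m replicate 1, 0.70 without 24m replicate 4, 0.49 with the trend over exonic length removed and 0.54 with that over canonical length.

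**Figure D2:**
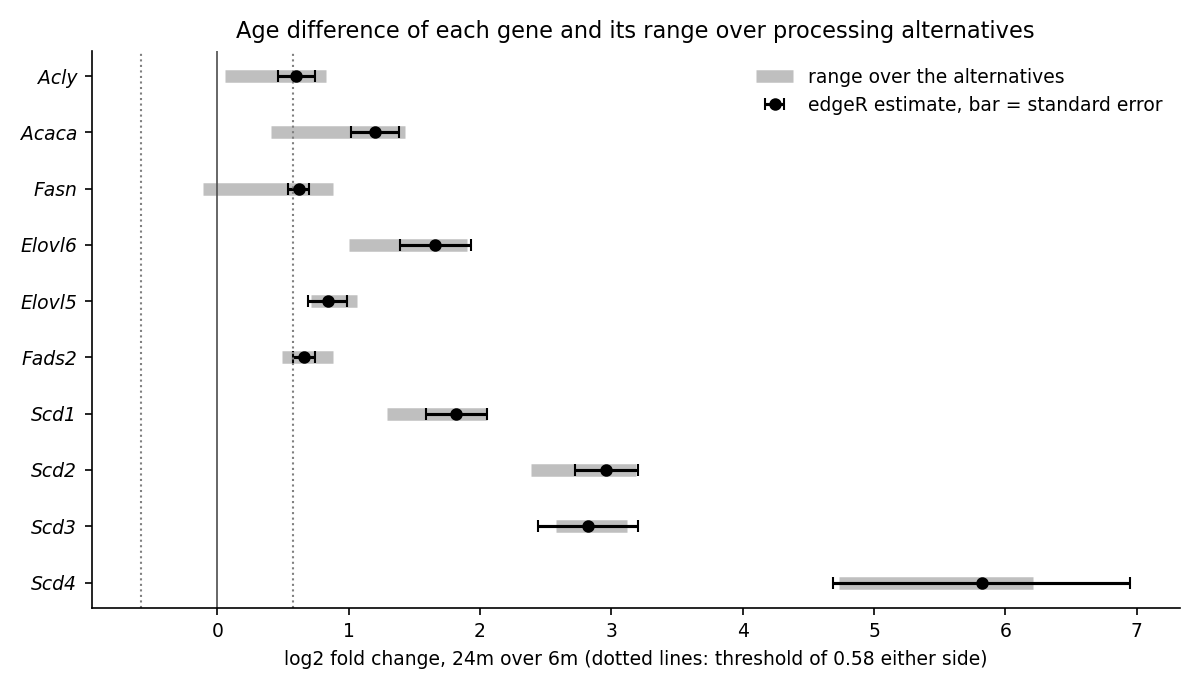
Log2 fold change of each gene, 24m over 6m, with the standard error as a bar and the range over the processing alternatives in grey. The ranges of Scd1 to Scd4, Elovl5 and Elovl6 stay above the threshold of 0.58, while those of Acly, Acaca, Fasn and Fads2 cross it and that of Fasn reaches -0.11.

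The stearoyl-CoA desaturases had the largest differences. Scd2 (ENSMUSG00000025203, chr19:44281613-44295303, plus strand), the main isoform of mouse brain, had 45.7, 68.6, 59.3 and 49.1 CPM in 6m and 275.5, 408.9, 449.4 and 604.8 CPM in 24m. The lowest 24m library was 4.02 times the highest 6m library, the widest gap among the 10 genes. Means were 55.7 ± 10.4 and 434.6 ± 135.6 CPM (SD, n = 4 each), with a log2 fold change of 2.96 ± 0.24 (SE) and of 3.15 without 24m replicate 1 or 2.76 without 24m replicate 4. Ranked by log2 fold change, Scd2 was at place 64 of 16730.

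Scd1 (ENSMUSG00000037071, chr19:44382894-44399154, minus strand), best known from liver and adipose tissue, had 12.6, 15.3, 13.9 and 12.4 CPM in 6m. In 24m it had 28.4, 46.2, 47.9 and 68.4 CPM. Its log2 fold change of 1.82 ± 0.23 (SE) was the smallest of the 4 paralogs, at 2.02 without 24m replicate 1 and 1.59 without 24m replicate 4. Its order over the 24m libraries, lowest in replicate 1 and highest in replicate 4, was that of Scd2.

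Scd3 (ENSMUSG00000025202, chr19:44191708-44232455, plus strand), known from skin and the Harderian gland, had 4.31, 4.00, 4.50 and 4.48 CPM in 6m. The 24m libraries had 30.6, 37.9, 9.88 and 43.9 CPM, so that replicate 3 lay well under the other 3 but still at 2.20 times the highest 6m library. The log2 fold change was 2.82 ± 0.38 (SE), and 3.12 without 24m replicate 3, 2.84 without replicate 1 and 2.60 without replicate 4 of that age.

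Scd4 (ENSMUSG00000050195, chr19:44321531-44336783, plus strand), first described in heart, was barely detected in 6m, with 25, 44, 12 and 17 counts or 0.381, 0.622, 0.199 and 0.257 CPM. In 24m it had 242, 163, 2909 and 3866 counts or 2.34, 2.03, 34.9 and 44.3 CPM. Replicates 3 and 4 carried nearly all of the 24m signal, and the SD of 22.0 CPM exceeded the mean of 20.9 CPM. Even so, the lowest 24m library was 3.27 times the highest 6m library. The fitted log2 fold change was 5.82 ± 1.13 (SE), at place 5 of 16730, and it was 6.21 without 24m replicate 1, 5.14 without 24m replicate 4 and 4.73 by limma-voom.

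The composition of the desaturase pool was compared as the share of each gene in the summed counts of the 4 paralogs. Scd2 held 72.6% to 77.5% in 6m and 79.4% to 82.9% in 24m. Scd1 held 17.3% to 20% in 6m and 8.44% to 9.34% in 24m. The age ranges of both shares were separate. Scd3 held 6.84%, 4.52%, 5.77% and 6.77% in 6m and 9.08%, 7.66%, 1.82% and 5.77% in 24m, and these ranges overlapped. Scd4 held 0.256% to 0.703% in 6m, 0.693% (95% Wilson interval 0.612 to 0.786) and 0.411% (0.353 to 0.479) in 24m replicates 1 and 2, and 6.44% (6.22 to 6.67) and 5.82% (5.65 to 6.00) in replicates 3 and 4. The intervals cover counting error only. In 24m replicate 3 the Scd4 share was thus above the Scd3 share, and in replicates 1 and 2 below it. Summed to a single feature, the 4 genes had a log2 fold change of 2.85.

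**Figure D3:**
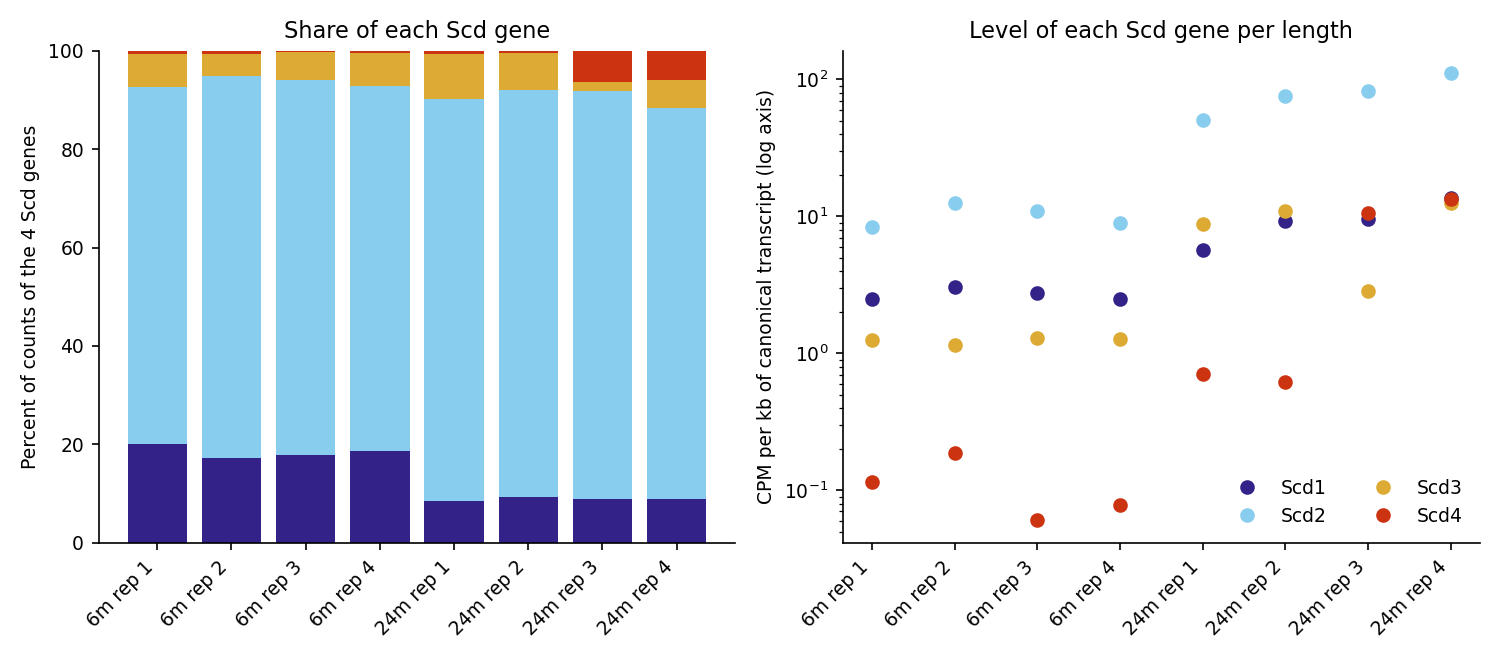
Left, percent of the counts of the 4 Scd genes held by each in every library. Right, CPM per kb of canonical transcript on a log axis. Scd2 leads in all 8 libraries, the Scd1 share is lower in every 24m library, and Scd4 is visible in the bars of 24m replicates 3 and 4 with 6.44% and 5.82%.

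Levels were compared between genes per kilobase of canonical transcript, and the order depends on the length chosen. All exons of Acly span 14.57 kb against 4.41 kb for its canonical transcript, and those of Fasn 11.71 against 10.79 kb. Per canonical kilobase Acly led in 6m with 33.7 ± 3.03 CPM per kb (SD, n = 4), followed by Fads2 with 31.6 ± 1.69, within that spread. Fasn had 24.5 ± 1.56, Scd2 10.2 ± 1.90, Elovl5 5.97 ± 0.573, Scd1 2.70 ± 0.267, Acaca 2.49 ± 0.209, Scd3 1.24 ± 0.0655, Elovl6 0.145 ± 0.0109 and Scd4 0.110 ± 0.0568 CPM per kb. Scd1 and Acaca, and likewise Elovl6 and Scd4, were neighbours that did not differ beyond their spread. In 24m Scd2 had the highest mean with 79.7 ± 24.9 CPM per kb, from 50.5 to 111 over its libraries. Acly with 51.1 ± 9.86 and Fads2 with 50.02 ± 3.87 came next and lay within their spread. Fasn followed with 37.7 ± 2.39, then Elovl5 with 10.7 ± 2.18, Scd1 with 9.50 ± 3.25, Scd3 with 8.76 ± 4.25, Scd4 with 6.32 ± 6.64 and Acaca with 5.70 ± 1.51 CPM per kb. From Elovl5 to Acaca each level lay within the spread of its neighbour in this order, and Elovl6 was last with 0.460 ± 0.174. The canonical Fasn transcript of the annotation used here is 10.8 kb long.

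The 4 Scd genes are close paralogs, and whether reads matching several places were counted is not stated. Their coding sequences, of 1062 to 1080 bases, were 84.5% (Scd2 and Scd4) to 91.5% (Scd1 and Scd3) identical in pairwise alignment, the latter being the closest pair. Most of each canonical transcript lies outside the coding sequence and differs. Of the 100-base windows, 2.54% of Scd1, 0.896% of Scd2, 2.54% of Scd3 and 0.53% of Scd4 occurred identically in another of the 4 transcripts. Of 150-base windows, close to the read length, Scd2 and Scd4 shared 0, Scd1 0.738% and Scd3 1.08%. The effect of shared reads on the counts was not tested. Scd4 and Fasn overlap no other annotated gene, and the other 8 overlap at least 1 microRNA or predicted gene, with Tada2a and Odad4 in addition in Acaca and Acly.

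The cluster lies on chromosome 19 in the order Scd3, Scd2, Scd4 and Scd1. The 11 other tested genes within 200 kb of it did not share a direction. Erlin1, an endoplasmic reticulum protein that binds cholesterol, rose from 2.70 ± 0.449 to 6.18 ± 1.35 CPM (log2 fold change 1.19 ± 0.19 SE, adjusted p = 0.000542 by edgeR), and Hif1an, an asparagine hydroxylase, rose by 1.16 ± 0.15 (adjusted p = 0.000216). Bloc1s2 fell by 0.78, Ndufb8, a subunit of respiratory complex I, fell by 0.97, and the predicted gene Gm20538, whose span overlaps Ndufb8, fell by 1.03 on the log2 scale (adjusted p = 0.000857, 0.0019 and 0.00138 by edgeR). The remaining 6 were not called, among them the nearest on either side, Pkd2l1 with -0.04 and Wnt8b with -0.28, as well as Chuk with 0.05 and Cwf19l1 with a mean of 13.9 CPM at both ages.

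**Figure D4:**
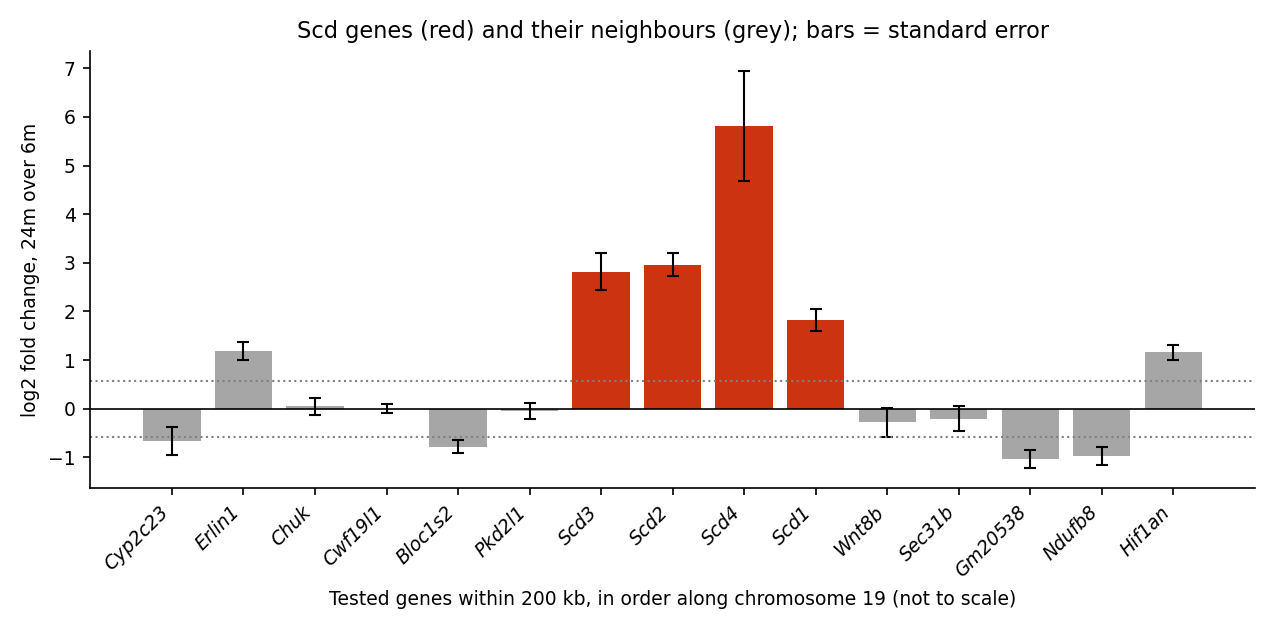
Log2 fold change, 24m over 6m, of the 4 Scd genes in red and the 11 tested neighbours within 200 kb in grey, in chromosomal order and not to scale, with standard errors. The 4 Scd bars lie between 1.82 and 5.82, and the neighbours between -1.03 and 1.19.

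The tested genes whose profiles over the 8 libraries were most like that of Scd2 were Fam168a, Kcnj10, Spata31f3, Srgap3 and Trim66, with root mean square distances of 0.11 to 0.15 between centred log2 CPM values. Kcnj10, the inward rectifier potassium channel of glia, had 3.58 to 5.01 CPM in 6m and 17.1 to 54.1 CPM in 24m. For Scd4 the nearest were Peg10, Slc2a13, Ddx6, Uhmk1 and Adcy1 at distances of 1.35 to 1.39, which are far larger. Their log2 fold changes were 3.49 to 3.61 against 5.82 in Scd4, and they lacked its low and high pair of 24m libraries. In 24m replicates 2 and 3 Peg10 had 9.97 and 10.8 CPM, where Scd4 had 2.03 and 34.9 CPM. No gene with a mean of at least 1 CPM lay closer to Scd4 by this measure.

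The question whether the 10 genes stood alone in lipid metabolism was addressed with 99 further genes in 8 lists by role, chosen with earlier results of these data known. Of 97 tested, 26 were called higher, 15 lower and 56 were not called, with a median log2 fold change of 0.08. Without 24m replicate 1 the counts were 29 higher and 21 lower, beside 28.2% and 21.6% of all genes in that setting. In the main fit the 25.3% and 18.3% called over all genes stand beside 26 and 15 of 97, and beside the counts of each list below.

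**Figure D5:**
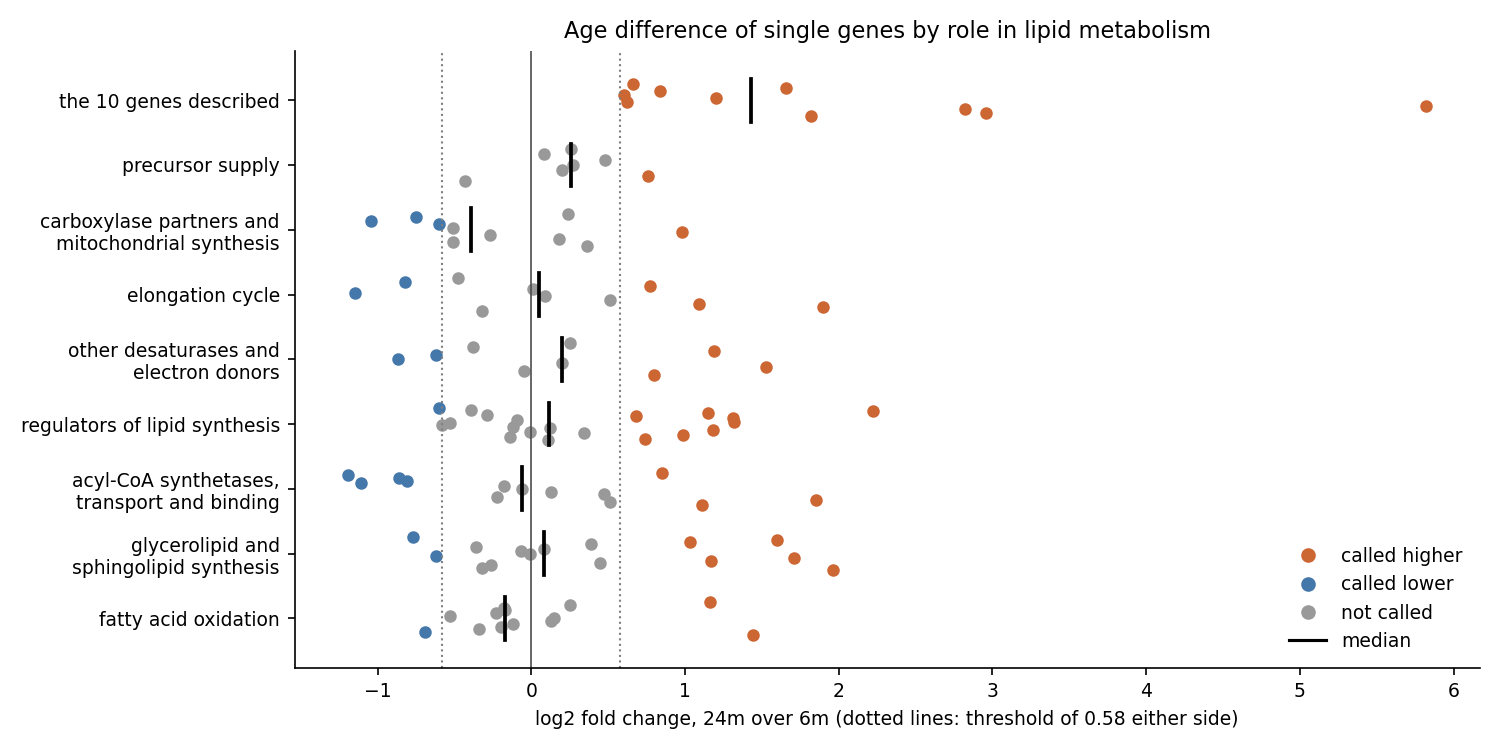
Log2 fold change, 24m over 6m, of single genes by role, with orange for called higher, blue for called lower, grey for not called and a bar at the median. The 10 selected genes lie to the right of 0.58, and the other lists spread to both sides of 0 with medians from -0.39 to 0.26.

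Among other desaturases and their electron donors, 3 of 9 were higher and 2 lower. Fads1, the delta-5 desaturase that acts after Fads2 and lies near it on chromosome 19 (chr19:10160167-10174241), rose from 93.5 ± 7.59 to 162.9 ± 10.7 CPM (log2 fold change 0.80 ± 0.09 SE, adjusted p = 9.25e-05 by edgeR). Fads6 rose by 1.53 ± 0.12 and Cyb5b, an outer mitochondrial membrane cytochrome b5, by 1.19 ± 0.13 (adjusted p = 2.42e-05 and 0.000111). Cyb5a, the microsomal cytochrome b5 that passes electrons to the desaturases, fell by 0.62 (adjusted p = 0.00135), in the direction opposite to the Scd genes. Degs1, the ceramide desaturase, had 0.20 ± 0.07 and was under the fold-change threshold.

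In the elongation cycle 3 of 10 were higher and 2 lower. The very long chain elongases Elovl2 and Elovl4 rose by 1.90 ± 0.23 and 1.09 ± 0.20 (adjusted p = 0.000149 and 0.00142 by edgeR). The dehydratase Hacd3 rose by 0.77, while its paralog Hacd1 fell by 1.15 (adjusted p = 0.000146 and 0.000268). Elovl7 with 0.51 and Elovl1 with -0.32 missed the threshold, and Elovl7 passed it at 0.63 without 24m replicate 1.

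Precursor supply gave 1 called gene of 7. Acss1, the mitochondrial acetyl-CoA synthetase, rose by 0.76 ± 0.21 (adjusted p = 0.00949 by edgeR), and was under the threshold at 0.51 after quantile normalization and DESeq2 and at 0.53 with the trend over exonic length removed. The citrate carrier Slc25a1 had -0.43 ± 0.16 and passed the threshold at -0.60 without 24m replicate 1. Malic enzyme Me1 with 0.27 and the cytosolic acetyl-CoA synthetase Acss2 with 0.20 were not called. Among carboxylase partners and mitochondrial synthesis 1 of 10 was higher and 3 lower. Acacb, the mitochondrial counterpart of Acaca, had 0.36 ± 0.11, and Thrsp, a regulator of lipogenesis, had -0.51 ± 0.16, or -0.66 and called without 24m replicate 1. Oxsm, the mitochondrial ketoacyl synthase, rose by 0.98, and Hsd17b8, a reductase of the same system, fell by 1.04 (adjusted p = 0.0015 and 0.00122 by edgeR). Hsd17b8 was at -0.50, under the threshold, with the trend over exonic length removed.

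Of 20 regulators, 8 were higher and 1 lower. Srebf1, which encodes SREBP-1, was not called, with 135.8 ± 10.8 CPM in 6m and 146.1 ± 19.6 in 24m (log2 fold change 0.11 ± 0.11 SE, adjusted p = 0.411 by edgeR). Srebf2, which encodes SREBP-2 and was named after its value was seen, rose from 207.4 ± 9.86 to 346.0 ± 5.87 CPM (0.74 ± 0.07, adjusted p = 5.6e-05). Insig1, the sterol-responsive anchor of the SREBP precursors, rose by 0.99 ± 0.16 (adjusted p = 0.000682), whereas their escort Scap had -0.14 and the carbohydrate-responsive factor Mlxipl 0.12, neither called. Prkaa2, a catalytic subunit of the AMP-activated kinase that inhibits acetyl-CoA carboxylase, rose by 2.22 ± 0.37, and the retinoid receptor Rxra by 1.32 ± 0.09 (adjusted p = 0.000734 and 1.94e-05).

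Downstream lists also held genes of both directions. In glycerolipid and sphingolipid synthesis 5 of 15 were higher and 2 lower, led by the acyltransferase Gpam with 1.96 and the phosphatidate phosphatase Lpin2 with 1.71 (adjusted p = 0.00012 and 0.000156 by edgeR). Among acyl-CoA synthetases, transport and binding 3 of 13 were higher and 4 lower, with Acsl4 at 1.85 and the brain fatty acid binding protein Fabp7 at -1.19 (adjusted p = 0.00096 and 0.000412 by edgeR). With the trend over exonic length removed Fabp7 was at -0.53 and not called. In fatty acid oxidation 2 of 13 were higher and 1 lower. Cpt1a, the carnitine transferase that malonyl-CoA inhibits, rose by 1.44 (adjusted p = 8.15e-05 by edgeR).

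Markers of the cell types that a hemisphere holds were set beside these values, and their part in the results was not tested. Beside each count of called markers stand the 25.3% called higher and 18.3% called lower over all tested genes. Of 11 oligodendrocyte markers 2 were called higher, among them Mal with 0.62, and none lower, with summed levels of 3513 to 4373 CPM in 6m and 3799 to 4384 in 24m. Mbp, a defining myelin gene, had 2060 CPM in 6m and 2061 CPM in 24m. Of 8 astrocyte markers 5 were higher, including Gfap with 1.45 and Slc1a3 with 1.89, and 1, S100b, lower. Of 7 neuronal markers 3 were higher, of 5 oligodendrocyte precursor markers 2 and of 7 microglial markers 2, with none lower in these lists. Endothelial markers gave 1 of 5 higher and 2 lower, meningeal markers 1 of 7 higher, and choroid plexus markers 3 of 7 higher while their summed level was 1778 to 3200 CPM in 6m and 826 to 2258 CPM in 24m.

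Markers of adipocytes, sebaceous or Harderian gland, striated muscle and erythroid cells were set beside the same shares over all genes. Of 8 adipocyte markers the defining Adipoq, Cidec and Lep were at 0 to 0.0707 CPM in all libraries, and of the 4 tested Plin4 was higher and Retn lower. Of 8 sebaceous or Harderian gland markers, Awat1 and Elovl3 were at 0 to 0.0344 CPM, and of the 6 tested Soat1 was higher while Awat2 and Dgat2l6 were lower. Of 7 tested striated muscle markers 5 were lower and none higher, and Myl7 was at 0 to 0.136 CPM. All 5 erythroid markers were lower, with summed levels of 5426 to 7605 CPM in 6m and 1242 to 4156 CPM in 24m.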

How the data were processed

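Whole-number counts per gene and library were deposited by the authors, who trimmed reads with Trim Galore 0.4.11, aligned them to GRCm39 with HISAT2 2.1.0 and counted with featureCounts on Ensembl genes. The use of strand and of reads matching several places is not stated. Here 22281 of 22430 listed genes were matched to GENCODE, and the 149 others held 0.31% of counts. The 16730 genes that exceeded 5 counts in 4 or more of the 8 libraries were fitted with edgeR 4.0.16 (R 4.3.3) with TMM factors and age alone in the design. P-values were adjusted over all of them by Benjamini-Hochberg, and 0.58 (or -0.58) was the log2 threshold. The fit was tested on simulated data. The 10 genes and all lists were chosen with earlier results of these data known. Of each list, the text names the 2 called genes of largest change with a mean of at least 1 CPM and a fixed set of lipid genes. Hacd3, Cyb5a, Srebf2 and the markers were singled out later, with their values in view. Alternatives covered scaling, DESeq2 1.42.0, limma-voom (limma 3.58.1), filters, each library left out, the replicate number as a block, and trends over length or GC content, of which the canonical length trend was added after seeing the data. Wilson intervals used SciPy 1.17.1. Pc could not be matched, and some items are not reported here. No replicate pair agreed within sampling noise, and replicates were separate animals.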

Additional observations from a re-analysis of the deposited data

Results flagged for a closer look

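Among 39 named genes in 2 ages, 78 groups of 4 libraries were examined, and 1 had a library far from the others. Me1, malic enzyme, had 51.5 CPM in 24m replicate 4 against 42.6 to 44 CPM in the other 24m libraries. About 1 in 20 groups is expected to show such a gap by chance. None of the 10 fatty acid synthesis and desaturase genes had such a library, Scd4 included, whose 24m values form a low and a high pair.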

How the results depend on the processing

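The counts of the 10 genes called higher stayed within 9 to 10 over the libraries left out, and 0 were called lower under every alternative. The count was 6 with the length trend removed, with or without the replicate block, and 6 with the canonical length trend. Of all genes 20.8%, 21.1% and 17.8% were called higher in these settings, respectively. Pathway genes called lower were 7 with library totals alone, which moves the median of all genes to 0.21, and 29 without a fold-change threshold, against 15. The shares of all genes called lower moved likewise, at 10.4%, 29.9% and 18.3%, respectively. Replicate numbers did not pair the libraries (same-number correlations of 0.27, 0.14, 0.08 and -0.35), and the replicate block gave 10 of the 10 genes, 26 pathway genes higher and 16 lower. With this block 24.6% of all genes were called higher and 18.7% lower. Directions turned with the length trend removed in Acacb (-0.04), Acss2 (-0.39), Mlxipl (-0.09) and Srebf1 (-0.01), with the replicate block added in the same genes (-0.03, -0.42, -0.07 and -0.02), and with the canonical length trend in Fasn (-0.11), Acacb (-0.36), Elovl7 (-0.06), Me1 (-0.05), Mlxipl (-0.09), Srebf1 (-0.25) and Thrsp (0.06). Mlxipl was -0.18 after quantile normalization and Scap 0.08 with library totals alone. With the length trend removed Acss1 (0.53), Fabp7 (-0.53) and Hsd17b8 (-0.50) lost their calls and Scap (-0.59) gained a call. The cause was not tested. Low counts limit Scd4 and Elovl6 in 6m.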
